A study of Mus musculus with 2 samples.

Results

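The genes described here are 9 genes of DNA replication, DNA repair and chromosome segregation: Mcm3, Mcm6, Prim2, Orc2, Bard1, Ube2t, Hjurp, Sgol2a and Nucks1. They were chosen by name, with earlier results of these data known, and each was found once among the 1068 genes analysed here. They were measured in 3881 single LβT2 cells, 1992 treated with vehicle and 1889 treated with 2 nM GnRH for 40 min. The UMIs of the 9 genes made up 3.15% of the analysed UMIs in vehicle cells and 2.96% in GnRH cells. None of the 9 genes differed by as much as 1.5-fold between the libraries, as was so of most of the 409 genes with 100 UMIs or more (2.44% were higher and 1.71% lower by that much). Within each library, however, Mcm3 and Mcm6 varied together from cell to cell, and Hjurp, Sgol2a, Ube2t and Nucks1 varied together, while the MCM genes ran weakly opposite to Nucks1.

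LβT2 cells are a mouse line derived from the gonadotrope, the pituitary cell that secretes luteinising and follicle-stimulating hormone under the control of the hypothalamic peptide GnRH. The line came from a pituitary tumour of a transgenic mouse in which the regulatory region of the rat luteinising hormone β gene drove simian virus large T antigen, so all cells, vehicle-treated ones included, carry that transgene and divide in culture. Cells of 15 passages, grown with serum and seeded 48 h earlier, gave 1 vehicle library and 1 GnRH library of droplet-based 3′ RNA-seq (GEM Drop-seq), from about 8000 loaded cells each. Transcripts were counted by unique molecular identifiers (UMIs), so that PCR copies count once. With 1 library per treatment no test could be made and no difference has a replicate check. All intervals are 95% intervals that cover counting error only.

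A dividing cell licenses its replication origins in G1, when the origin recognition complex loads the ring-shaped MCM helicase, and primase then starts each new DNA strand in S phase. Repair proteins guard the forks. Some centromere proteins hold sister chromatids together in mitosis, and others keep the histone CENP-A at centromeres. Transcripts of the MCM genes are known to peak around the entry into S phase under E2F control, whereas many mitosis genes peak in G2 and M and carry the cell cycle homology region (CHR) element, often with CCAAT boxes, in their promoters.

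The promoters of 4 of the genes are shown because Mcm3 with Mcm6, and Hjurp with Nucks1, had the highest r of the 36 pairs of the set in both libraries, as described below. They were taken from RefSeq on GRCm38.p6, from 250 bases before to 50 after the start site, and are written 5′ to 3′ in the direction of the gene. The start sites are those of RefSeq, and the Nucks1 window ends before the GENCODE start of that gene given below, while for Mcm6 the RefSeq start lies upstream of the GENCODE one. Of the 9 genes, 8 had a promoter entry, with 10 promoters in all (Orc2 and Sgol2a had 2 each), and Prim2 had none. Capitals mark matches on either strand to E2F words (TTTCCCGC, TTTCGCGC, TTTGCCGC or TTTGGCGC), CHR words (TTTGAA or TTCGAA) and CCAAT. Mcm3 lies at chr1:20820263-20820562 on the minus strand, Mcm6 at chr1:128359656-128359955 on the minus strand, Hjurp at chr1:88277530-88277829 on the minus strand and Nucks1 at chr1:131910208-131910507 on the plus strand.
Mcm3: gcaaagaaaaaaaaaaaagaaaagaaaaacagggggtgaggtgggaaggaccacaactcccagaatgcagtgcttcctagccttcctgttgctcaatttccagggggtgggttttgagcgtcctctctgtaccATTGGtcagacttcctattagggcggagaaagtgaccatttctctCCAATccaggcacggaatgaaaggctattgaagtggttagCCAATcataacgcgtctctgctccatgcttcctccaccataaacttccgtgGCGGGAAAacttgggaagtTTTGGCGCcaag
Mcm6: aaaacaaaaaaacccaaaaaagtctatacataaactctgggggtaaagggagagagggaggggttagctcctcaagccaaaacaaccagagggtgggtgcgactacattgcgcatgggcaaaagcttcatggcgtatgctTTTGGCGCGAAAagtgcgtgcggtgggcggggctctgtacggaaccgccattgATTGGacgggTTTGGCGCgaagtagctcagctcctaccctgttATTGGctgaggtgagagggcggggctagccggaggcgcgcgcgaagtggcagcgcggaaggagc
Hjurp: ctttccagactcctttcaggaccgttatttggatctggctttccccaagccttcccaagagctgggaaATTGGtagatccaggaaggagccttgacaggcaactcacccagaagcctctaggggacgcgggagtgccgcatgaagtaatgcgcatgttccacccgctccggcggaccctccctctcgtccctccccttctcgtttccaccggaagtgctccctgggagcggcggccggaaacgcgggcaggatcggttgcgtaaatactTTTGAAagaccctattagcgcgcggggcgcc
Nucks1: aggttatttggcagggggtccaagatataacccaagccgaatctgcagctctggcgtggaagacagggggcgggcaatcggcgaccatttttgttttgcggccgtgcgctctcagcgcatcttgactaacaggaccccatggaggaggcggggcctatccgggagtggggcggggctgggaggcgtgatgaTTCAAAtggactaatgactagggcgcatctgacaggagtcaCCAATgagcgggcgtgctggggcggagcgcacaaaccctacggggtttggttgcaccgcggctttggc

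Mcm3 held 2 E2F words, at positions 20 to 27 and 39 to 46 counted from the start site, and Mcm6 held 3, of which those at -110 to -103 and -106 to -99 overlap. Across all 32851 RefSeq promoters of this length 2.26% held an E2F word and 0.0974% held 2 or more. Bard1 was the one other gene of the set with an E2F word, so that 3 of the 10 promoters had one. A CHR word was found in Hjurp, Nucks1 and Bard1, against 19.2% of all promoters, and CCAAT was found in 9 of the 10, against 37.4%. Both Sgol2a promoters held CCAAT and neither an E2F nor a CHR word. Neither MCM promoter held a CHR word, and neither the Hjurp nor the Nucks1 promoter held an E2F word. These matches describe the letters in the window and are not measured binding sites.

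All 9 genes lie on chromosome 1, as do 1062 of the 1068 analysed genes, so position does not set them apart. Mcm3 (20802968 to 20820312, minus strand), Mcm6 (128331590 to 128359664, minus), Ube2t (134962565 to 134974162, plus) and Hjurp (88262471 to 88277633, minus) overlap no other annotated gene in GRCm38 (GENCODE M21). Prim2 (33453810 to 33669795, minus), Orc2 (58462771 to 58505109, minus), Bard1 (71027498 to 71103146, minus), Sgol2a (named Sgo2a there, 57995971 to 58025899, plus) and Nucks1 (131910534 to 131936321, plus) each overlap at least 1 other annotated gene. Reads of these 5 genes may have been shared with the overlapping ones, which makes their counts uncertain, and Sgol2a also has a related copy, Sgol2b, that was not analysed here.

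The cells of the vehicle library had 1126320 UMIs over the analysed genes (median 543.5 per cell) and those of the GnRH library 1118763 (median 561). These totals cover 3.81% of the gene list and are not the depth of the libraries. Of 7 gonadotrope markers 2 were analysed, Inha with 2024 vehicle and 2281 GnRH UMIs and Inhbb with 4001 and 3274. Of 4 fibroblast markers 2 were analysed, Col3a1 with 0 UMIs in both libraries and Fn1 with 640 and 712, and the 2 analysed markers of cycling cells were Mcm6 and Hjurp themselves. Of 4 markers of other pituitary cells 0 were analysed. Numbered cells could not be tied to their barcodes, so barcodes shared between the libraries were not counted.

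To ask whether GnRH shifted the level of these genes within 40 min, UMIs were summed over the cells of each library and expressed as CPM, the UMIs of a gene per 1000000 UMIs of the analysed genes. Of the 9 genes, 0 were at least 2-fold higher or lower in the GnRH library, where 1.22% of the 409 genes that had 100 UMIs or more were higher and 0% were lower. At 1.5-fold the count was again 0 in both directions, against 2.44% of genes higher and 1.71% lower. The median log2 ratio of GnRH over vehicle was -0.09 for the 9 genes, with a range of -0.22 to 0.08, and -0.09 for the 409 genes. Of the 9 genes, 6 lay above the median gene and 3 below it, and 4 lay within the interquartile range of all genes (-0.19 to 0.00).

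The ratios of the replication genes ran from -0.09 to 0.07. Mcm3, a subunit of the MCM helicase, had 4758 UMIs in vehicle and 4958 in GnRH cells, or 4224 CPM (4105 to 4346) and 4432 CPM (4309 to 4557), a log2 ratio of 0.07 (0.01 to 0.13). Mcm6, another subunit of the same ring, had 4685 and 4697 UMIs and a log2 ratio of 0.01 (-0.05 to 0.07). The interval of Mcm6 spans equal levels, and that of Mcm3 lies just above them, but both lie above the ratio of the median gene, and under TMM scaling the log2 ratios were 0.16 and 0.10. Prim2, the large subunit of primase, had 1376 and 1280 UMIs with a log2 ratio of -0.09 (-0.21 to 0.02). Orc2, a subunit of the origin recognition complex, had 1368 and 1324 UMIs with a log2 ratio of -0.04 (-0.15 to 0.07). Neither could be told from equal levels at this depth.

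Among the repair genes, Bard1, the partner of BRCA1 in homologous recombination, had 631 and 661 UMIs and a log2 ratio of 0.08 (-0.08 to 0.24). Ube2t, the ubiquitin-conjugating enzyme of the Fanconi anaemia pathway, had 2650 and 2472 UMIs, or 2353 CPM (2264 to 2444) and 2210 CPM (2123 to 2298). Its log2 ratio of -0.09 (-0.17 to -0.01) was close to that of the median gene, and under TMM scaling it was 0.00.

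The mitosis genes and Nucks1 had the lowest ratios of the set. Hjurp, the chaperone that deposits CENP-A at centromeres, had 7432 UMIs in vehicle and 6349 in GnRH cells, or 6598 CPM (6449 to 6750) and 5675 CPM (5536 to 5816), 14.0% less. Its log2 ratio was -0.22 (-0.27 to -0.17). Sgol2a, a shugoshin that protects centromeric cohesin, had 771 and 672 UMIs, or 685 CPM (637 to 735) and 601 CPM (556 to 648), a log2 ratio of -0.19 (-0.34 to -0.04). Nucks1, a chromatin-bound nuclear phosphoprotein linked to recombination repair, had 11854 and 10683 UMIs, or 10525 CPM (10336 to 10716) and 9549 CPM (9369 to 9732), a log2 ratio of -0.14 (-0.18 to -0.10). These were the 3 genes of the set with a ratio below that of the median gene.

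Counting intervals of Hjurp, Sgol2a and Nucks1 did not reach equal levels, although that of Sgol2a includes the ratio of the median gene. These genes varied between cells beyond counting error, so these intervals understate the uncertainty of a treatment difference. The ratios also depended on scaling: under TMM the log2 ratio was -0.13 for Hjurp, -0.10 for Sgol2a and -0.05 for Nucks1, with the median gene at -0.0033. Whether the lower levels belong to the treatment or to the library cannot be told apart with 1 library each.

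**Figure D1:**
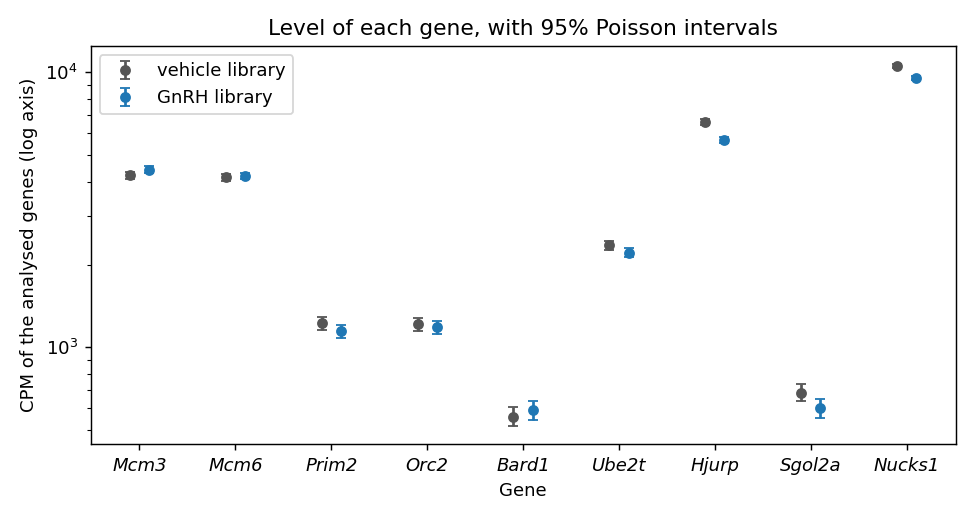
Level of each of the 9 genes in CPM of the analysed genes (log axis) in the vehicle library (grey) and the GnRH library (blue), with 95% Poisson intervals as bars. Hjurp, at 6598 and 5675 CPM, and Nucks1, at 10525 and 9549 CPM, sit lower in the GnRH library, while Mcm6, at 4160 and 4198 CPM, has overlapping intervals.

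The study set the variation between cells against Poisson counting noise. For each gene the squared coefficient of variation (CV) was divided by the value that counting gives at the UMI total of each cell, so that a ratio of 1 means no spread beyond counting. In the vehicle library 5 of the 9 genes reached 1.5 times the expectation, against 5.81% of the 344 genes that averaged at least 0.1 UMI per cell. In the GnRH library 4 of the 9 did, against 6.73% of 342 genes. These shares cover genes of all levels and are not matched to the level of the 9 genes, although the ratio depends on the mean count. Hjurp and Nucks1, for example, averaged 3.73 and 5.95 UMIs per vehicle cell. The part of level in the difference from all genes was not tested. The median of the 9 genes was 1.60 in vehicle and 1.47 in GnRH cells, whereas the median gene was at 1.07 in each.

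Nucks1 spread most within the set, at 2.17 times the expectation in vehicle and 2.10 in GnRH cells. Its median was 5 UMIs per cell in both libraries, with a highest cell of 40 and of 54 UMIs. Hjurp followed at 1.81 and 1.95, Mcm3 at 1.77 and 1.77, and Mcm6 at 1.69 and 1.63. These 4 genes passed 1.5 in both libraries, and Sgol2a, at 1.60 and 1.41, passed in the vehicle library. Just outside was Ube2t, at 1.42 and 1.47. Prim2 (1.16 and 1.22), Bard1 (1.15 and 1.18) and Orc2 (1.10 and 1.12) lay near the median gene.

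**Figure D2:**
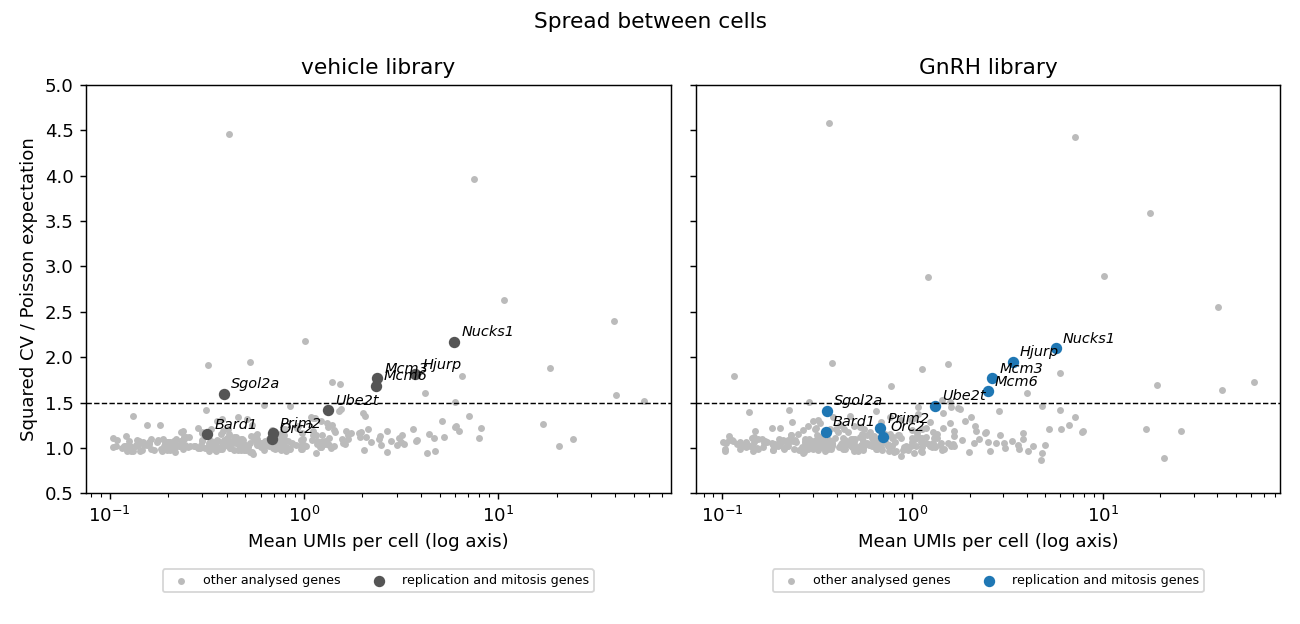
Squared CV over the Poisson expectation against mean UMIs per cell (log axis) for all genes averaging at least 0.1 UMI per cell, with the 9 genes in dark grey (vehicle) or blue (GnRH), other genes in light grey and the 1.5 threshold as a dashed line. Nucks1, Hjurp, Mcm3 and Mcm6 stand above the line in both libraries, and Prim2, Orc2 and Bard1 lie within the band of the other genes.

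Depth touched this result. At 300 UMIs per cell, a depth to which each cell was thinned at random, only Hjurp (1.61 and 1.5) and Nucks1 (1.73 and 1.66) still reached 1.5, against 4.65% of 301 genes in the vehicle library and 4.12% of 291 in the other, while Mcm3 stood at 1.47 and 1.49 and Mcm6 at 1.47 and 1.45. By its construction the ratio is lower at a lower mean count for any gene that varies. The level itself also moved with depth: Sgol2a was 1.95 times as high in CPM in the 25% of vehicle cells with most UMIs as in the 25% with fewest, and 1.90 times in GnRH cells, whereas for Mcm6 this ratio was 1.10 and 1.06. It was 1.24 and 1.55 for Hjurp, 1.3 and 1.37 for Nucks1, 1.39 and 1.39 for Ube2t and 1.35 and 1.12 for Mcm3. It was above 1 for each of the 9 genes in both libraries. The same ratio was not computed for the other analysed genes, so this is not read as a trait of the set. The part of depth in the spread of these genes was not tested.

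The spread showed in cells without the transcript. Hjurp had no UMI in 13.6% of vehicle cells, where counting alone gives 6.10%, and in 15.1% of GnRH cells, where it gives 6.49%. Nucks1 had none in 6.17% and 5.56% of cells, against 2.18% and 1.80%. For Mcm3 the shares were 23.7% against 13.8% in the vehicle library and 21.2% against 10.8% in the GnRH library. Mcm6 was without a UMI in 22.3% of vehicle and 20.6% of GnRH cells, against 14.2% and 11.9%. Each of these genes was thus missing from more cells than counting alone gives, in both libraries. Orc2, by contrast, was missing from 54.3% of vehicle cells against 52.2%, and from 53.0% of GnRH cells against 51.2%.

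Detection was compared after thinning to 300 UMIs of the analysed genes, which matches this partial total and not the whole depth of the cells, and leaves out 219 vehicle and 108 GnRH cells below it. At that total, 61.8% of vehicle and 64.6% of GnRH cells held a Mcm3 UMI, and 64.5% and 64.9% a Mcm6 UMI. Hjurp was the gene with the widest gap, at 77.6% of vehicle cells (exact binomial interval 75.6 to 79.5%) and 73.3% of GnRH cells (71.2 to 75.3%). Unthinned, it was found in 86.4% and 84.9% of cells. Thinned shares were 27.9% and 25.9% for Prim2, 29.7% and 28.9% for Orc2, 14.6% and 14.7% for Bard1, 45.6% and 43.6% for Ube2t, 14.8% and 13.9% for Sgol2a and 89.2% and 88.0% for Nucks1. No cell type that should lack these genes was identified among the cells, so the part of free RNA in these shares is not known.

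Correlations across cells were used to ask which of the genes were high in the same cells. Each cell with at least 300 UMIs, that is 1773 vehicle and 1781 GnRH cells, was thinned to 300 UMIs, and Pearson's r was averaged over 20 thinnings. Cells of 1 library share its preparation and, after thinning, an equal total over the analysed genes, though not an equal whole depth. They are not replicates, so r is given as a description. Counts this sparse hold r near 0. Pairs were formed among the genes averaging at least 0.1 UMI per cell. Of all 58996 such pairs in the vehicle library, those between percentiles 1 and 99 ran from -0.0530 to 0.0487, and in the GnRH library from -0.0532 to 0.0495. An r within these bounds is not read as a relation. The bounds take in genes of all levels and are not matched to the level of a pair.

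Mcm3 and Mcm6 gave r = 0.296 in the vehicle library, the highest of those 58996 pairs, and 0.322 in the GnRH library, where the highest pair reached 0.363. Prim2 joined them more weakly, at 0.122 and 0.107 with Mcm3 and 0.0919 and 0.0983 with Mcm6. Orc2 stayed between 0.00 and 0.06 with each of the other 8 genes in both libraries. All 6 pairs of the replication genes were above 0 in both libraries, with a median of 0.0688 and 0.0785. Of all gene pairs, 49.5% were above 0 among vehicle cells and 49.6% among GnRH cells. Pairs of Orc2 within the bounds of most gene pairs count here by sign alone and are not read as a relation. Orc2 lay within the bounds of most gene pairs in the vehicle library and passed them slightly in the GnRH library with Mcm3 (0.0587), Hjurp (0.0529) and Nucks1 (0.0509).

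Hjurp and Sgol2a gave r = 0.167 in vehicle and 0.216 in GnRH cells. Both were also high with Nucks1, at 0.226 and 0.232 for Hjurp and 0.197 and 0.199 for Sgol2a. Ube2t, although a repair gene, kept with this group, at 0.184 and 0.180 with Hjurp, 0.163 and 0.175 with Nucks1 and 0.109 and 0.150 with Sgol2a. All 6 pairs among Ube2t, Hjurp, Sgol2a and Nucks1 were at or above 0.1 in both libraries, with a median of 0.175 and 0.189. This grouping of 4 genes was made after their values had been seen. Bard1 reached 0.141 with Hjurp in vehicle and 0.0893 in GnRH cells.

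Of all 36 pairs within the set, 9 in vehicle and 8 in GnRH cells had r of at least 0.1, against 0.114% and 0.117% of all pairs. The 8 pairs were among the 9. The shares of all pairs cover genes of all levels and are not matched to the level of the 9 genes, although r grew with depth. The part of level in this difference was not tested. At the other end, 2 pairs in vehicle and 1 in GnRH cells had r of -0.1 or lower, against 0.141% and 0.161% of all pairs. These were Mcm6 with Nucks1, at -0.152 and -0.126, and Mcm3 with Nucks1, at -0.120 in vehicle and -0.097 in GnRH cells. Mcm6 with Sgol2a was just outside, at -0.0982 and -0.0812. The sign of r was the same in both libraries for 34 of the 36 pairs. Some of these, such as Mcm6 with Orc2 (0.0193 and 0.0373), lay within the bounds of most gene pairs. The share of all gene pairs that kept their sign was not computed, so this count is not read as a trait of the set.

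Between the replication and the mitosis genes as groups r was near 0. The 8 pairs of Mcm3, Mcm6, Prim2 or Orc2 with Hjurp or Sgol2a had a median r of -0.00457 in vehicle and 0.000616 in GnRH cells. The summed UMIs of the 4 replication genes and those of both mitosis genes gave r = -0.0181 in each library. The sum of Mcm3 and Mcm6 alone gave r = -0.0405 and -0.0477 with the mitosis sum. Among the single pairs, Mcm6 with Sgol2a and Mcm3 with Sgol2a (-0.0753 and -0.0573) were outside the bounds of most gene pairs in both libraries, and Prim2 with Hjurp was at 0.0691 and 0.0465. Mcm3 with Hjurp was at 0.00837 and -0.0141, within the range of most gene pairs.

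**Figure D3:**
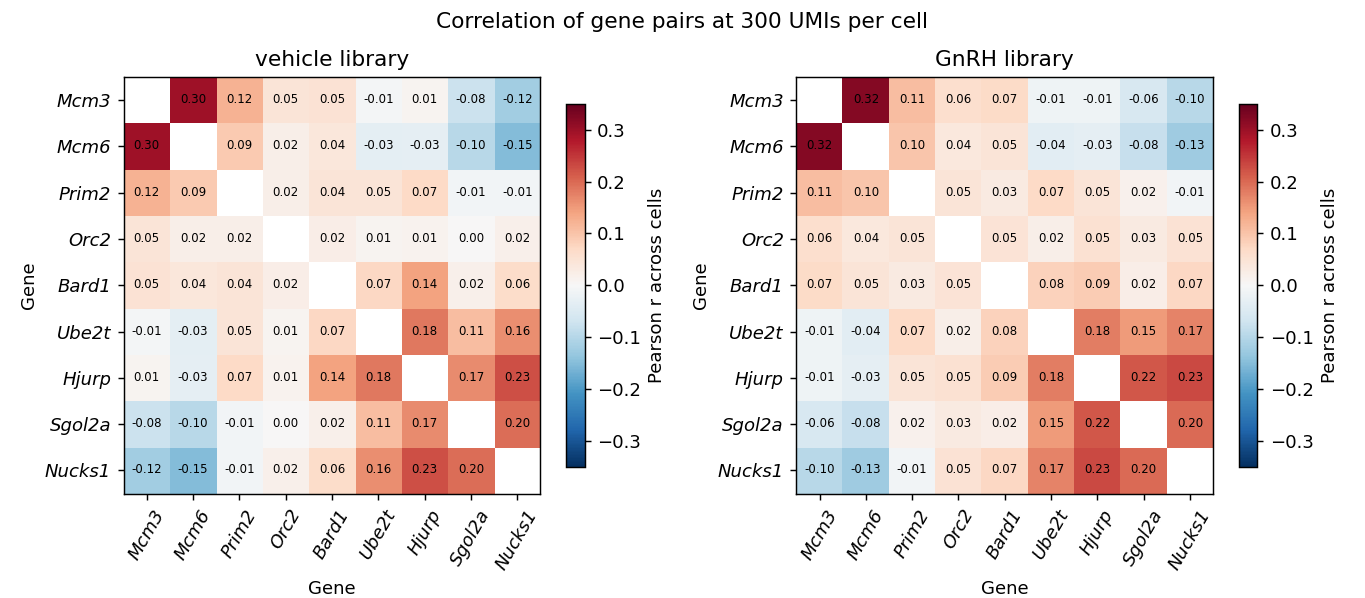
Pearson r across cells for each pair of the 9 genes (both axes), after thinning to 300 UMIs per cell, in 1773 vehicle and 1781 GnRH cells, with red for positive and blue for negative values. The 4 genes Ube2t, Hjurp, Sgol2a and Nucks1 form a red block in both libraries, and Mcm3 and Mcm6 form a separate pair that is blue against Nucks1.

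The relation between the MCM and mitosis genes was then followed across cells grouped by their UMIs of Hjurp plus Sgol2a at 300 UMIs per cell. In the vehicle library Mcm3 plus Mcm6 averaged 2.26 UMIs in cells with 0 mitosis UMIs, 2.61 with 1 to 2, 2.49 with 3 to 5 and 1.79 with 6 or more. In the GnRH library the values were 2.52, 2.68, 2.54 and 1.80. MCM counts were thus highest in cells with 1 to 2 mitosis UMIs and lowest in the small group with most mitosis UMIs. That group held 5.87% of vehicle and 3.69% of GnRH cells, an average of 104 and 65.8 cells over the thinnings.

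In the same groups, the share of cells without any MCM UMI was 20.9%, 16.5%, 17.0% and 24.5% in the vehicle library and 19.7%, 16.0%, 15.8% and 23.3% in the GnRH library. It was highest where mitosis UMIs were highest, in both libraries. Nucks1 UMIs, unlike MCM UMIs, were highest in the group with most mitosis UMIs. They went from 2.38 to 4.48 per cell between the lowest and highest group in vehicle cells, and from 2.20 to 4.34 in GnRH cells. Ube2t went from 0.442 to 1.04 and from 0.440 to 1.03. Before thinning, the median UMI total was 514 in the lowest and 612 in the highest group of vehicle cells, and 532 and 623 in GnRH cells, so cells without mitosis UMIs were also the shallower ones. The part of depth in these differences was not tested.

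When the cells were grouped by Mcm3 plus Mcm6 instead, Nucks1 went from 3.61 UMIs in vehicle cells with no MCM UMI to 2.26 in those with 6 or more, and from 3.18 to 2.28 in GnRH cells. Sgol2a went from 0.260 to 0.0997 and from 0.224 to 0.111. Prim2 went the other way, from 0.209 to 0.478 and from 0.191 to 0.430. Hjurp was almost level in vehicle cells, at 1.89 and 1.79 UMIs in the outer groups, and was 1.55 and 1.47 in GnRH cells.

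**Figure D4:**
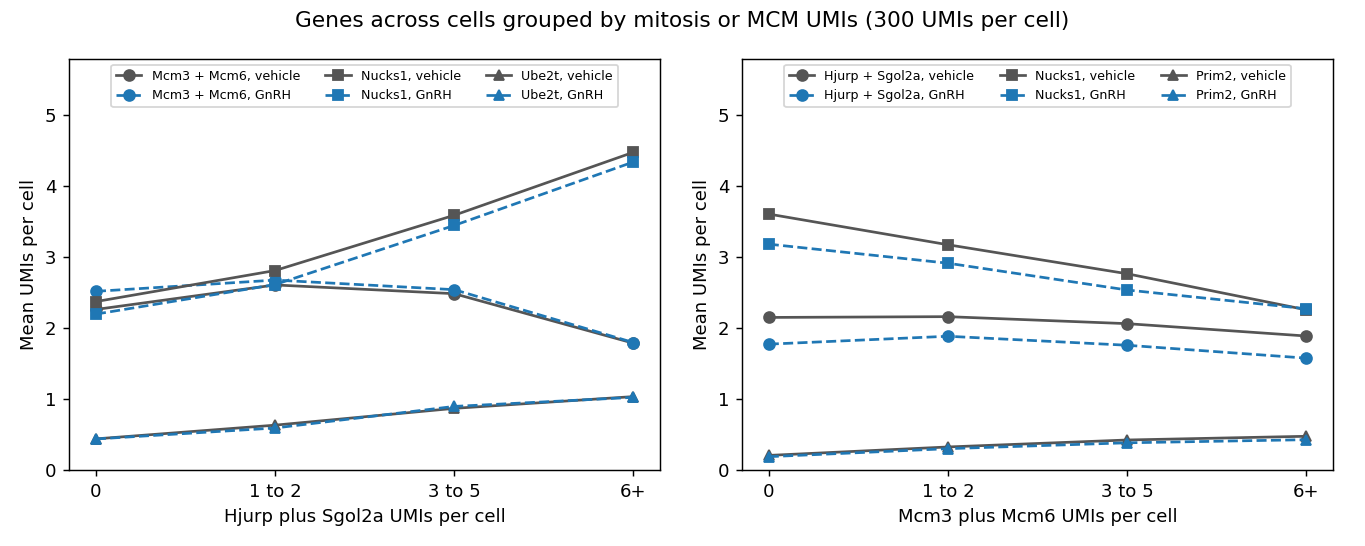
Mean UMIs per cell at 300 UMIs per cell for cells grouped by Hjurp plus Sgol2a UMIs (left) or by Mcm3 plus Mcm6 UMIs (right), in vehicle (grey, solid) and GnRH (blue, dashed) cells. On the left Nucks1 climbs to 4.48 and 4.34 while Mcm3 plus Mcm6 ends at 1.79 and 1.80, and on the right Nucks1 descends to 2.26 and 2.28 while Prim2 climbs.

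The genes outside the set whose pattern was most like it were sought by the same r. Ptma, which encodes the small nuclear protein prothymosin alpha, was among the 3 nearest genes of Prim2, Orc2, Bard1, Ube2t, Hjurp and Nucks1 in the vehicle library. It gave 0.199 with Hjurp, 0.207 with Nucks1 and 0.196 with Ube2t there, and 0.237, 0.215 and 0.232 in the GnRH library. Dtymk, the thymidylate kinase that supplies dTTP, was among the 3 nearest of Mcm3 (0.108 and 0.114), Orc2 and Bard1. In the vehicle library Mcm6 had Pask (0.111 and 0.0652) and Hspe1 (0.109 and 0.0919) as its nearest genes after Mcm3. Sgol2a had Stk17b (0.117 and 0.0713) after Nucks1 and Hjurp there. In the GnRH library Pask, Hspe1 and Stk17b ranked 9, 5 and 7. Orc2 had Ptma (0.0600 and 0.0802), Dtymk (0.0565 and 0.0951) and Snrpe (0.0511 and 0.0764) as its nearest genes.

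Against the summed replication genes, the highest r among the 330 genes outside the set was that of Dtymk, at 0.142 in vehicle and 0.157 in GnRH cells. Against the summed mitosis genes the highest was that of Ptma, at 0.203 and 0.237. Dtymk was also high with the mitosis sum, at 0.129 and 0.173, and differed in this from Mcm3 and Mcm6. The lowest values were those of Rpl37a with the replication sum, at -0.133 and -0.167, and of Igfbp5 with the mitosis sum, at -0.199 and -0.188. Rpl37a, a ribosomal protein, and Igfbp5, a secreted binding protein of insulin-like growth factors, were named after their values were seen.

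**Figure D5:**
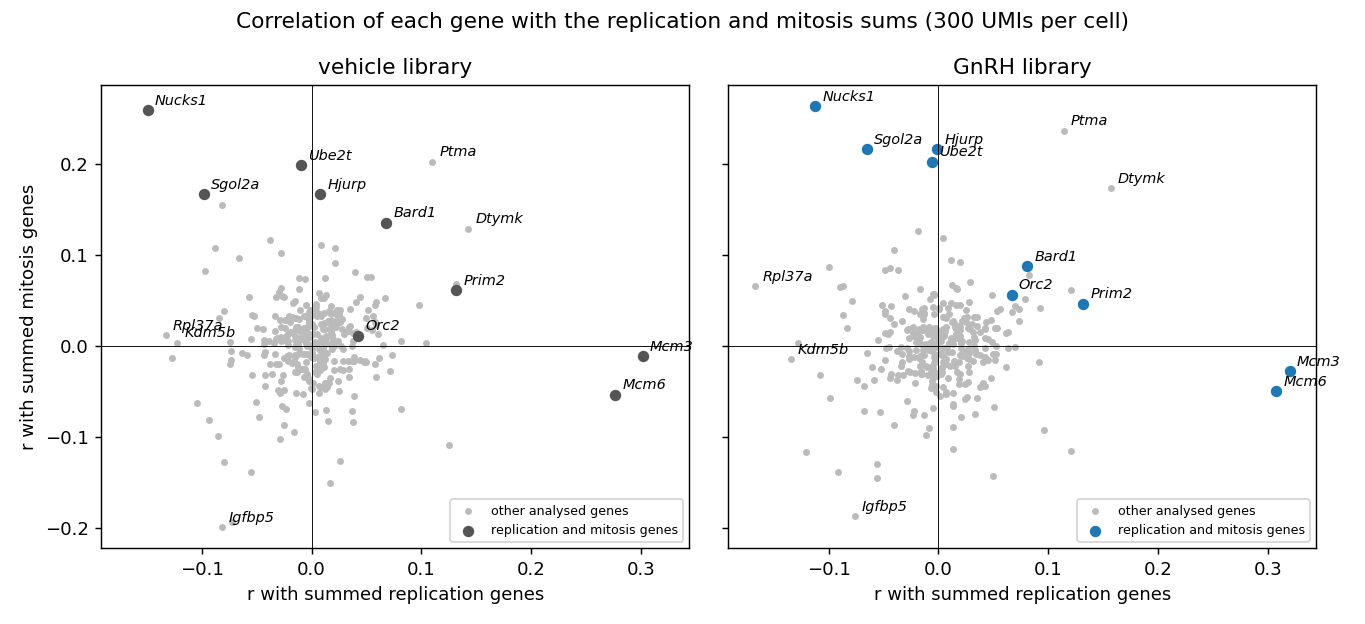
Pearson r of each gene with the summed replication genes (x axis) and with the summed mitosis genes (y axis), each sum without the gene itself, across cells thinned to 300 UMIs. Mcm3 and Mcm6 lie far right near 0 on the y axis, Nucks1 lies at the upper left (-0.149 and 0.259 in the vehicle library), and Dtymk and Ptma lie at the upper right.

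A further list of 26 genes of replication, repair, nucleotide supply, spindle and division gave the surroundings of the set. Of these, 25 were analysed and Kif14 was not. Their median log2 ratio of GnRH over vehicle was -0.08, against -0.09 for the 409 genes, and 0 of the 25 differed by 1.5-fold in either direction, near the 2.44% higher and 1.71% lower of all genes. Fam72a was lowest, with 478 vehicle and 345 GnRH UMIs and a log2 ratio of -0.46 (-0.66 to -0.26), and Nabp1, a single-stranded DNA binding protein, was highest, with 65 and 83 UMIs and 0.36 (-0.12 to 0.85). Of 23 tested for spread, Dtymk passed 1.5 in both libraries (1.61 and 1.60) and Mdm4, an inhibitor of p53, passed in the GnRH library (1.47 and 1.68). These 1 and 2 genes of 23 are near the 5.81% and 6.73% of all genes.

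The study assigned cell cycle phases with 5 lists of genes taken from outside sources. Of 565 distinct genes on them 22 were analysed, and 6 of these belong to the set: Mcm6 and Bard1 (G1/S), Ube2t (S), Hjurp (G2/M), Nucks1 (G2/M and M/G1) and Sgol2a (M). The median log2 ratio of the 21 with at least 100 UMIs was -0.08, from -0.37 for Kdelc1 to 0.32 for Ptp4a1. Of the 15 list genes outside the set tested for spread, 0 reached 1.5 in either library, again near the 5.81% and 6.73% of all genes. Kdelc1 and Ptp4a1 were named after their values were seen.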

How the data were processed

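Single LβT2 cells treated with vehicle or GnRH (1 library each) were profiled by GEM Drop-seq with 3′ chemistry. The authors counted UMIs with Cell Ranger (version 1.3) on mouse build mm10 (submitters' processing notes), and the deposited values are raw counts of called cells with no normalisation. The annotation used for counting, the use of strand and any equalisation of depth are not given in the sources used here. The table used here held the first 1068 of 27998 listed genes (3.81%), an incomplete last row was left out, and all totals and CPM refer to these genes.

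UMIs were summed per gene and library and scaled to the library total. Intervals are exact Poisson for sums, exact conditional binomial for ratios and Clopper-Pearson for shares of cells. Spread was the squared CV over the value that counting gives at the UMI total of each cell, for genes averaging at least 0.1 UMI per cell. Correlations were Pearson's r over cells thinned to 300 UMIs, which left out 219 vehicle and 108 GnRH cells, as the mean of 20 thinnings. Genes were called by size alone (2-fold or 1.5-fold with at least 100 UMIs, 1.5 times the Poisson expectation, r of 0.1). With 1 library per treatment no test was run and no p-value is given.

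Named genes were the 9 of the set, the pathway genes with the highest and the lowest ratio or with a spread over 1.5, the 3 nearest genes of each of the 9 in the vehicle library, and Btg2. Rpl37a, Igfbp5, Kdelc1 and Ptp4a1 were named outside this rule, after their values were seen. The members and lists were chosen with earlier results of these data known. No cells were clustered and no doublet caller was run, and leaving out the 5% of cells with most UMIs served as an alternative. The others were median-of-ratios, TMM (edgeR 4.0.16) or no scaling, the mean CPM per cell, totals without Btg2, no cells under 300 UMIs, other minimums, a plain Poisson expectation, thinning to 200 or 450 UMIs, Pearson residuals, unthinned counts, log2(count + 1) and Spearman's correlation. Scripts ran in Python 3.11.15 with numpy 2.4.6 and scipy 1.17.1 and were tested on simulated data. Positions are from GENCODE M21 (GRCm38) and promoters from RefSeq (GRCm38.p6).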

Additional observations from a re-analysis of the deposited data

How the results depend on the processing

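No paired analysis was possible because there was 1 library per treatment and no test was run. The counts of 0 of the 9 genes past 1.5-fold or 2-fold held under all 9 alternatives run for them. The log2 ratios left their counting intervals under median-of-ratios, TMM and no scaling for Mcm3 (0.15, 0.16 and 0.14), Mcm6 (0.09, 0.10 and 0.08), Hjurp (-0.14, -0.13 and -0.15) and Nucks1 (-0.06, -0.05 and -0.07). Nucks1 also did so with Btg2 left out of the totals (-0.10). For Ube2t they did so under median-of-ratios (-0.01) and TMM (0.00). These scalings move the median gene, from -0.09 to -0.0140, -0.0033 and -0.0280. With at least 20 UMIs as the minimum, 9 analysed genes were 2-fold higher and 1 lower, and 18 were 1.5-fold higher and 17 lower. With at least 1 UMI the counts were 59 and 52, and 80 and 85, since more genes with few UMIs were tested.

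After thinning to 300 UMIs 2 of the 9 genes in vehicle and 2 in GnRH cells still reached 1.5 times the Poisson expectation, as did 14 of 301 genes (4.65%) and 12 of 291 genes (4.12%). An expectation from the mean alone gave 67 and 61 genes, 6 and 5 of the 9 among them. Without the 5% of cells with most UMIs 5 of the 9 passed in each library. Among all tested genes, 20 then passed for vehicle cells and 25 for GnRH cells, against 20 and 23 with every cell kept.

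Correlations grew with depth. The median r within the replication genes, 0.0688 in vehicle and 0.0785 in GnRH cells, was 0.0362 in the vehicle library at 200 UMIs, 0.113 and 0.135 for Pearson residuals and 0.270 and 0.255 for unthinned, unscaled counts. Between Hjurp and Sgol2a r was 0.138 and 0.157 at 200 UMIs, 0.190 and 0.293 at 450, 0.264 and 0.335 for residuals and 0.367 and 0.425 unthinned. The median between replication and mitosis genes was -0.0393 and -0.0326 at 450 UMIs, -0.0289 and -0.0250 for residuals and 0.125 and 0.117 unthinned, and in the GnRH library 0.0158 on log2(count + 1) and 0.0180 by Spearman's correlation. Unthinned, unscaled counts, in which deep cells are high in every gene, turned Mcm6 with Nucks1 to 0.0571 and 0.0724 and Mcm3 with Nucks1 to 0.130 in vehicle and 0.143 in GnRH cells. Under each other alternative Mcm6 with Nucks1 stayed negative, down to -0.235 and -0.194 for residuals, and Mcm3 with Mcm6 ran from 0.215 to 0.469, against 0.563 and 0.555 unthinned. At this depth r under 0.1 and the levels of Bard1 and Sgol2a are the least certain values.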

Other observations

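Btg2, an antiproliferative early response gene, was set against the 9 genes across the thinned cells. With Nucks1 r was 0.10 in vehicle and -0.16 in GnRH cells, with Hjurp 0.0820 and -0.0755, and with Sgol2a 0.0825 and -0.0770. With Mcm3 it was -0.0590 and 0.0203, and with Mcm6 -0.0624 and 0.0271. For Nucks1, Hjurp and Sgol2a the values were of opposite sign in the 2 libraries and outside the bounds of most gene pairs in both, a difference that could not be tested with 1 library per treatment. The GnRH values of Mcm3 and Mcm6 lie within those bounds and are not read as a relation.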
